A study of Mus musculus with 16 samples.

Results

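The genes described here code 3 families of proteins that take part in choosing and using splice sites, measured in muscle cells sorted from mice with and without p53. They are the 40 of 24341 gene symbols whose names begin with Srsf and a digit, with Hnrnp and a letter, or with Sf3a or Sf3b and a digit: 11 SR protein genes, 20 hnRNP genes and 9 genes of the SF3A and SF3B complexes. Membership was set by names alone and by no measured value, but the members were chosen with earlier results of these data known. RNA came from 16 libraries in 6 groups: p53WT, p53KO, p53WT_3dai and p53KO_3dai with 3 libraries each, and p53WT_G2 and p53KO_G2 with 2 each. All mice were C57BL/6, 2 to 3 months old, with the genotype given as p53 WT or p53KO, and no further allele or agent is named for any group. The title of the series speaks of a model of Duchenne muscular dystrophy, but no label of these samples gives a dystrophin genotype, so whether any of the mice were dystrophic is not known here. Which part of the p53 gene is lost, and in which cells, is not stated in the labels. The sort kept cells that carry CD34 and alpha-7 integrin and discarded those with Sca-1, CD45, CD11b or CD31, a gate that enriches muscle stem cells. Cells of the 3dai groups were taken from the tibialis anterior and all other cells from hind limb muscles, so that a difference between 3dai and another group and a difference between muscles cannot be told apart. The labels spell out neither 3dai nor G2, and the groups are called by these suffixes; they also do not say whether replicates were separate animals, so each p measures only the spread between these libraries.

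Introns are removed by the spliceosome, which is assembled anew on each intron. SF3A and SF3B are the protein complexes of the U2 snRNP, the particle that recognises the branch point. SR proteins carry domains rich in arginine and serine, bind exonic enhancers and mostly favour the use of nearby splice sites, while hnRNP proteins coat nascent RNA and often act against such sites. Several genes of both families can limit their own output by splicing in exons that lead to decay of the transcript, and this decay is not resolved by values summed over a gene. Muscle stem cells are quiescent in resting muscle and enter the cell cycle after damage.

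Values are FPKM per gene, fragments scaled by transcript length and library size, and levels are compared between genes only on this scale, which is per length. Sequencing depth is unknown from the files. Differences are on the log2(FPKM + 1) scale, from limma fitted to all 12954 genes that passed a filter on low values, and a gene is said to have been called, to have risen or to have fallen where the Benjamini-Hochberg adjusted p over those genes is under 0.05. Trp53, the targeted gene, stood at 39.9, 53.9 and 48.1 FPKM in the 3 p53WT libraries and at 6.34, 12.2 and 7.17 in the p53KO libraries. It stood at 134, 135 and 161 FPKM in p53WT_3dai, at 41.3, 45.7 and 34.9 in p53KO_3dai, at 71.0 and 59.9 in p53WT_G2 and at 16.7 and 19.8 in p53KO_G2. The positive sort genes were present, with Cd34 between 27.1 and 140.3 FPKM and Itga7 between 81.1 and 317, and the negative ones were at or near 0, with Pecam1 at most 2.09, Itgam 0.286, Ptprc 0.00898 and Ly6a 6.60. The third p53KO library stands apart in these genes: the 40 splicing factors sum to 3838 FPKM there against 4990 and 5324 in the other p53KO libraries, and it holds the highest sum of 10 immediate early genes, 18696 FPKM. The p53KO_3dai libraries also differ among themselves: 10 heat shock genes sum to 2673 FPKM in the first and to 4349 and 4766 in the others, against 2701 to 2907 in p53WT_3dai, and the 40 splicing factors sum to 5872, 6922 and 6930 FPKM.

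Of the 40 genes, 39 passed the filter of 1 FPKM in 2 libraries. Srsf12 did not: it is listed at 0 in 13 of 16 libraries and reached at most 1.04 FPKM. The other members are abundant, and together the 40 made up 0.821% to 1.17% of all FPKM in a library. Hnrnpa2b1, which codes a core hnRNP protein, had the highest mean of the hnRNP genes in 5 of the 6 groups, and Hnrnpab had it in p53WT_3dai. Hnrnpa2b1 ranged from 374 to 729 FPKM over the libraries, while Hnrnpr, the lowest hnRNP gene in 3 groups, ranged from 14.4 to 26.7. Of the SF3 genes Sf3a1 was lowest in 5 groups, and Sf3b1 was highest in the 4 groups other than 3dai. In p53WT the order of mean levels began with Hnrnpa2b1, Srsf5 and Hnrnpab, and the first of these did not separate from Srsf5, whose libraries overlapped with it.

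**Figure D1:**
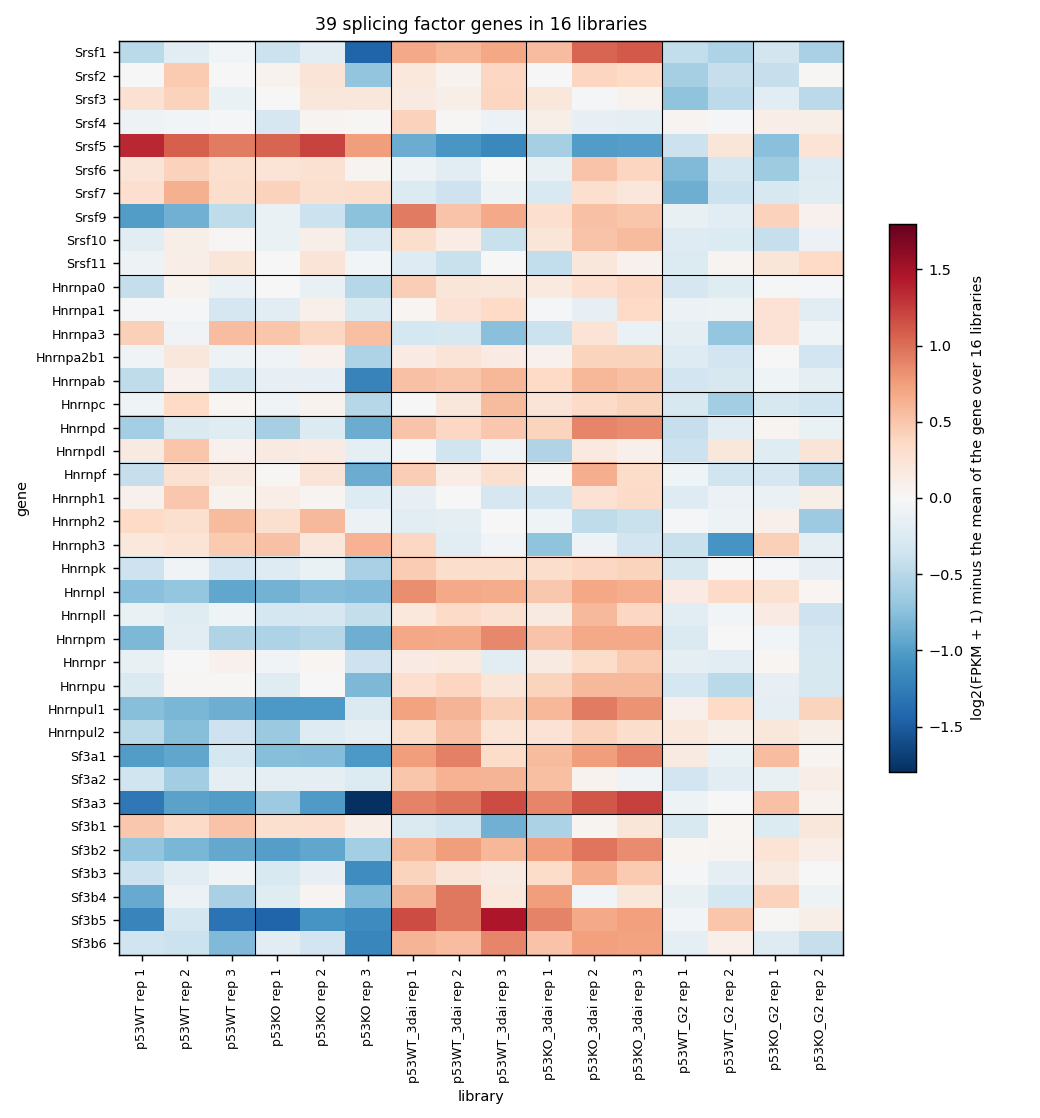
Heat map of the 39 tested splicing factor genes (rows, by family) in the 16 libraries (columns, by group); colour gives log2(FPKM + 1) minus the mean of the gene over all libraries, red above and blue below it. Most SF3 genes and Hnrnpl, Hnrnpm and Hnrnpul1 are red in the 6 3dai libraries and blue in the 6 with no suffix, Srsf5 shows the opposite, and the third p53KO library is blue for many genes.

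Of the 3 families the SF3 genes had the largest median differences in 3dai. In 3dai cells 7 of 9 rose and 1 fell with p53WT and 6 of 9 rose with p53KO, with medians of 1.19 and 1.23, beside 0.23 and 0.14 over all genes tested. Of all genes tested 31.8% rose and 20.9% fell in 3dai with p53WT, and 30.4% and 22.7% with p53KO. In G2 cells 4 of 9 rose in each genotype and 0 fell, beside 22.1% higher and 5.39% lower over all genes with p53WT and 22.5% and 7.06% with p53KO. Sf3a3, which codes a zinc-finger subunit of SF3A, and Sf3b5, which codes the smallest SF3B subunit, had the 2 largest rises of all 39 members in 3dai with p53WT. Sf3b1, which codes the large scaffold subunit of SF3B that holds the branch point, had a difference below 0 in all 4 comparisons in the FPKM as deposited, where the other 8 genes were above 0, and it was called in 3dai with p53WT.

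The sequences before the start sites of Sf3a3 and Sf3b1, shown because they moved in opposite directions within 1 family, are given for the 250 bases upstream in the GRCm38.p6 assembly, from RefSeq. Sf3a3 lies at chr4:124714611-124714860, plus strand, and Sf3b1 at chr1:55027479-55027728, minus strand. Both read 5′ to 3′ toward the start, with matches in capitals: CCGGAAG or its complement, the ETS core, in Sf3a3, and GGGCGG or its complement, the GC box, in Sf3b1.
Sf3a3: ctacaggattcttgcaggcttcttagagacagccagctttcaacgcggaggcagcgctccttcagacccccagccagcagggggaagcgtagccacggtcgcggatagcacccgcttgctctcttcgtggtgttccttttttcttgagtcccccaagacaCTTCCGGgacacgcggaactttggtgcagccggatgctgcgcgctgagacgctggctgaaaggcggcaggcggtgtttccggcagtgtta
Sf3b1: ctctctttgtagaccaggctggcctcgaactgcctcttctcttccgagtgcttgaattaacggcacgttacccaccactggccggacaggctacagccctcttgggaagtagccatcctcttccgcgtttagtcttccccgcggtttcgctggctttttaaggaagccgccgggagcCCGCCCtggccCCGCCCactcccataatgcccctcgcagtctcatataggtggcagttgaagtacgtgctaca
The ETS core was found in 6 of the 7 SF3 genes with a RefSeq promoter, all but Sf3b1, beside 12 of 36 members matched (33.3%), 13.8% of 9799 tested genes and 7.05% of all 27025 promoters of this length. This count was looked at after the values were known. A match of letters is a description and does not show that a factor binds there.

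Sf3a3 stood at 22.1, 27.9 and 27.2 FPKM in p53WT, 34.8, 26.8 and 15.04 in p53KO, 104, 109 and 126 in p53WT_3dai and 103, 121 and 132 in p53KO_3dai. In G2 it was at 52.2 and 55.7 FPKM in p53WT_G2 and 80.1 and 58.2 in p53KO_G2. All 6 3dai libraries lay above all others, and all 4 G2 libraries above all with no suffix. Mean FPKM in 3dai was 4.40 times that with no suffix in p53WT and 4.65 times in p53KO. The log2 differences were 2.10 (SE 0.24, adjusted p = 3.88e-06) and 2.24 (SE 0.24, adjusted p = 1.97e-06). G2 against no suffix gave 1.05 (SE 0.27, adjusted p = 0.00959) with p53WT and 1.46 (SE 0.27, adjusted p = 0.000989) with p53KO. With 1 library left out, the call in G2 with p53WT was lost for Sf3a3 (without p53WT_G2 replicate 2, adjusted p = 0.0787).

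Sf3b5 stood at 24.04, 44.5 and 21.7 FPKM in p53WT, 19.96, 26.1 and 24.97 in p53KO, 127, 109 and 155 in p53WT_3dai and 105, 90.04 and 93.4 in p53KO_3dai. In G2 it was at 53.7 and 78.9 FPKM in p53WT_G2 and 56.7 and 60.2 in p53KO_G2. The 3dai libraries again lay above all others, and the G2 libraries above those with no suffix, where the second p53WT library was highest. Log2 differences of Sf3b5 were 2.14 (SE 0.24, adjusted p = 3.12e-06) and 1.98 (SE 0.24, adjusted p = 6.63e-06) in 3dai and 1.16 (SE 0.27, adjusted p = 0.00503) and 1.28 (SE 0.27, adjusted p = 0.0026) in G2. Sf3b2, which codes an SF3B subunit that contacts the branch point region, stood at 47.1, 43.5 and 40.9 FPKM in p53WT, 38.8, 40.2 and 50.7 in p53KO, 119, 133 and 119 in p53WT_3dai and 132, 154 and 142 in p53KO_3dai. Its G2 libraries were at 79.95 and 80.96 FPKM in p53WT_G2 and 92.9 and 84.8 in p53KO_G2, with no overlap between the cells with no suffix, G2 and 3dai. It rose by 1.47 (SE 0.15, adjusted p = 8.9e-07) and 1.70 (SE 0.15, adjusted p = 1.95e-07) in 3dai and by 0.86 and 1.03 in G2 on the log2 scale. When single libraries were left out, the call in G2 with p53WT was lost for Sf3b5 (without p53WT_G2 replicate 2, adjusted p = 0.0973).

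Sf3a1, which codes the SF3A subunit with a ubiquitin-like domain, had the lowest mean of the family in 5 of the 6 groups. Its libraries were at 10.7, 11.3 and 17.98 FPKM in p53WT, 12.8, 12.7 and 10.5 in p53KO, 38.8, 42.99 and 28.7 in p53WT_3dai and 34.1, 38.8 and 42.1 in p53KO_3dai, and at 25.4 and 20.8 FPKM in p53WT_G2 and 33.4 and 23.3 in p53KO_G2. No library with no suffix reached the lowest G2 library. Sf3a1 rose by 1.42 (SE 0.23, adjusted p = 0.000108) and 1.60 (SE 0.23, adjusted p = 3.48e-05) in 3dai and by 0.78 (SE 0.26, adjusted p = 0.0353) and 1.16 (SE 0.26, adjusted p = 0.00369) in G2. Sf3b6, which codes the subunit next to the branch point adenosine, rose in 3dai in both genotypes (1.19 and 1.23) and was not called in G2 (0.47 and 0.25). Leaving out 1 library at a time, the call in G2 with p53WT was lost for Sf3a1 (without p53WT replicate 1 or 2 or p53WT_G2 replicate 1 or 2, adjusted p = 0.0855 to 0.215). In fits without 1 library, the call in G2 with p53KO was lost for Sf3a1 (without p53KO_G2 replicate 1, adjusted p = 0.0672).

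The other SF3 genes were called in one genotype only in 3dai. Sf3a2, the remaining SF3A subunit, rose with p53WT (0.96, SE 0.18, adjusted p = 0.000406) and was not called with p53KO (0.38, SE 0.18, adjusted p = 0.0927). Sf3b4 likewise rose with p53WT (1.11, adjusted p = 0.00449) and gave 0.62 (adjusted p = 0.083) with p53KO. Sf3b3 rose with p53KO (0.99, adjusted p = 0.00112) and gave 0.47 (adjusted p = 0.076) with p53WT. The difference between genotypes in these changes was tested as an interaction and was not called for any of them by limma; Sf3a2 came closest (log2 -0.58, adjusted p = 0.82).

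Sf3b1 ran against the family. It stood at 136, 123 and 139 FPKM in p53WT, 118, 119 and 105 in p53KO, 80.4, 75.1 and 52.6 in p53WT_3dai and 64.9, 100.02 and 112 in p53KO_3dai. In G2 it was at 79.6 and 98.9 FPKM in p53WT_G2 and 81.4 and 111 in p53KO_G2. With p53WT all 3 3dai libraries and both G2 libraries lay below all 3 with no suffix, while with p53KO the third 3dai library lay within the range of those with no suffix. The log2 difference in 3dai was -0.95 (SE 0.22, adjusted p = 0.00174) with p53WT and -0.34 (SE 0.22, adjusted p = 0.206) with p53KO, and in G2 it was -0.57 (SE 0.24, adjusted p = 0.092) and -0.26 (SE 0.24, adjusted p = 0.457). Under median-of-ratios scaling it was also called in 3dai with p53KO (-0.67, adjusted p = 0.0214) and in G2 with p53WT (adjusted p = 0.0095). As FPKM per library, Sf3b1 stood at 4.42 to 6.13 times Sf3a3 in p53WT and 3.39 to 6.95 times in p53KO. This ratio was 0.416 to 0.775 in p53WT_3dai, 0.630 to 0.848 in p53KO_3dai, 1.52 and 1.77 in p53WT_G2 and 1.02 and 1.91 in p53KO_G2. The ratio does not depend on how a library is scaled as a whole, and its 3 ranges do not overlap between cells with no suffix, G2 and 3dai.

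**Figure D2:**
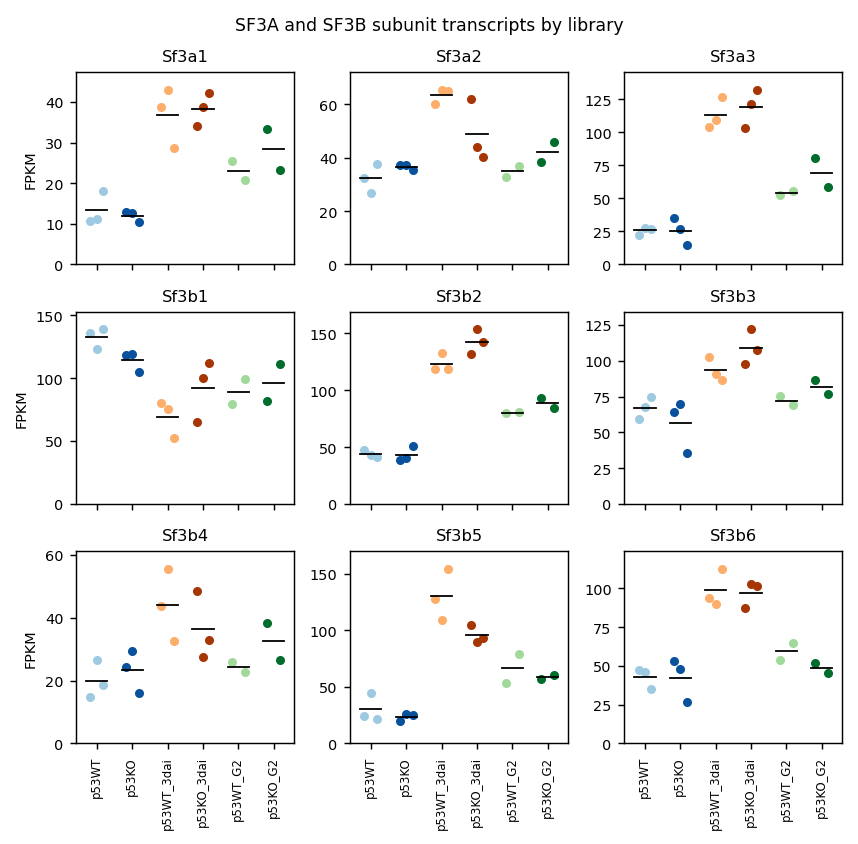
FPKM (vertical axes, linear from 0) of the 9 SF3A and SF3B genes, 1 panel each, by group (horizontal axes); points are libraries and bars are group means. In Sf3a3, Sf3b2 and Sf3b5 the 3dai points lie above all others with G2 between, and Sf3b1 is highest with no suffix.

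Among the SR protein genes the differences went both ways. In 3dai 2 of 10 rose and 2 fell with p53WT and 3 rose and 1 fell with p53KO, with medians of 0.04 in both, below those over all genes. Over all genes 31.8% and 30.4% rose in 3dai and 20.9% and 22.7% fell. In G2 0 rose and 4 fell with p53WT, beside 22.1% and 5.39% of all genes. With p53KO 1 rose and 3 fell in G2, beside 22.5% and 7.06%. Srsf5, first described as an insulin-induced gene of regenerating liver, fell in all 4 comparisons with cells with no suffix, and Srsf1, which codes the SR protein first described as ASF/SF2, rose in 3dai and was not called in G2.

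The upstream 250 bases of both genes follow, from RefSeq in GRCm38.p6, because Srsf5 fell and Srsf1 rose in 3dai in both genotypes. Srsf5 lies at chr12:80945249-80945498, plus strand, and Srsf1 at chr11:88047123-88047372, plus strand. Capitals mark the ETS core (CCGGAAG), the GC box (GGGCGG) and, in Srsf1, the E2F site TTTCCCGC, each on either strand. In the last run of capitals in Srsf5 a GC box and an ETS core share a base.
Srsf5: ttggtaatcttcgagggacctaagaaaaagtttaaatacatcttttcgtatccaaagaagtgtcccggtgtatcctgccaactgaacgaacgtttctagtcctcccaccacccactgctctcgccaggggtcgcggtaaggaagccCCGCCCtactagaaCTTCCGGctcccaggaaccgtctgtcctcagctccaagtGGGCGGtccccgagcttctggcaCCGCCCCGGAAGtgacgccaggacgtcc
Srsf1: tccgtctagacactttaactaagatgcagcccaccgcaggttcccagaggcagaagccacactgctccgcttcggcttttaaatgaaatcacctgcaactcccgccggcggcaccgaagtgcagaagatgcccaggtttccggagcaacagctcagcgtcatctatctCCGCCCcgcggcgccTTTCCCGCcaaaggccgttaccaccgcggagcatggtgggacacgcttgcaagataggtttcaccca
The E2F letters were found in 3 of 36 members, Srsf1, Srsf10 and Hnrnpul1, and in 1.79% of tested genes. The GC box was found in 10 of 11 SR promoters and in 60.6% of tested genes.

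Srsf5 stood at 584, 477 and 433 FPKM in p53WT, 468, 527 and 383 in p53KO, 121, 109 and 101 in p53WT_3dai and 149.6, 113 and 113 in p53KO_3dai. In G2 it was at 172 and 265 FPKM in p53WT_G2 and 134 and 269 in p53KO_G2. The lowest library with no suffix lay far above the highest 3dai library, and the G2 libraries lay between, with the first p53KO_G2 library within the 3dai range. Mean FPKM in 3dai was 0.221 of that with no suffix with p53WT and 0.272 with p53KO. Log2 differences were -2.16 (SE 0.24, adjusted p = 2.94e-06) and -1.87 (SE 0.24, adjusted p = 1.22e-05) in 3dai and -1.21 (SE 0.27, adjusted p = 0.00407) and -1.26 (SE 0.27, adjusted p = 0.00293) in G2. The gene made up 28.7% to 37.7% of the summed FPKM of the SR genes in p53WT, 8.03% to 9.74% in p53WT_3dai and 20.5% and 25.7% in p53WT_G2. With p53KO these shares were 31.8% to 33.0%, 8.04% to 13.0%, and 14.0% and 23.2%. With 1 library left out, the call in G2 with p53WT was lost for Srsf5 (without p53WT_G2 replicate 1, adjusted p = 0.0784). When single libraries were left out, the call in G2 with p53KO was lost for Srsf5 (without p53KO_G2 replicate 1, adjusted p = 0.0818).

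Srsf1 stood at 67.8, 83.3 and 92.7 FPKM in p53WT, 72.7, 82.6 and 34.6 in p53KO, 153, 145 and 155 in p53WT_3dai and 141, 199 and 206 in p53KO_3dai. In G2 it was at 69.99 and 64.7 FPKM in p53WT_G2 and 75.6 and 63.6 in p53KO_G2. The 3dai libraries lay above all others in both genotypes, and the G2 libraries did not separate from those with no suffix. The third p53KO library held the lowest value of all. Srsf1 rose by 0.90 (SE 0.26, adjusted p = 0.00874) and 1.58 (SE 0.26, adjusted p = 0.000111) in 3dai, and G2 gave -0.26 (SE 0.29, adjusted p = 0.558) and 0.22 (SE 0.29, adjusted p = 0.607). Under median-of-ratios scaling the 3dai difference with p53WT was 0.50 and was not called (adjusted p = 0.139).

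Srsf9, which codes a short SR protein, rose as well. It stood at 31.3, 34.4 and 45.98 FPKM in p53WT, 58.5, 48.3 and 37.96 in p53KO, 123, 90.99 and 103 in p53WT_3dai and 79.2, 92.02 and 90.2 in p53KO_3dai, and at 57.9 and 54.96 FPKM in p53WT_G2 and 85.3 and 67.2 in p53KO_G2. Libraries of 3dai and of no suffix did not overlap within a genotype. The log2 differences were 1.49 (SE 0.20, adjusted p = 1.48e-05) and 0.86 (SE 0.20, adjusted p = 0.0018) in 3dai and 0.61 (SE 0.22, adjusted p = 0.0522) and 0.66 (SE 0.22, adjusted p = 0.0336) in G2; the last was 0.23 and not called under median-of-ratios scaling (adjusted p = 0.49). Srsf10, a member that represses splicing when dephosphorylated, rose in 3dai with p53KO (0.53, SE 0.20, adjusted p = 0.0335), where its gain was 0.20 and not called under the same scaling (adjusted p = 0.429).

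Srsf7, which codes an SR protein with a zinc knuckle, fell in G2. It stood at 153, 195 and 155 FPKM in p53WT, 167, 152 and 155 in p53KO, 105, 96.5 and 117 in p53WT_3dai and 103, 153 and 144 in p53KO_3dai, and at 67.1 and 95.3 FPKM in p53WT_G2 and 102 and 108 in p53KO_G2. All G2 libraries lay below all with no suffix. The G2 differences were -1.05 (SE 0.20, adjusted p = 0.00139) and -0.59 (SE 0.20, adjusted p = 0.0392), and in 3dai Srsf7 fell with p53WT (-0.65, SE 0.18, adjusted p = 0.00695) and gave -0.27 (SE 0.18, adjusted p = 0.236) with p53KO, which was -0.60 and called under median-of-ratios scaling. Srsf6 was at 138, 158 and 143 FPKM in p53WT, 139, 143 and 122 in p53KO, 67.5 and 93.8 in p53WT_G2 and 75.1 and 99.9 in p53KO_G2, with every G2 library below every one with no suffix. It changed by -0.87 (SE 0.21, adjusted p = 0.00653) and -0.63 (SE 0.21, adjusted p = 0.0363) in G2. In 3dai Srsf6 was at 111, 103 and 117 FPKM with p53WT and 107, 169 and 154 with p53KO. Srsf3, which codes the smallest SR protein, was at 155, 170.5 and 118 FPKM in p53WT and 76.9 and 91.4 in p53WT_G2. These groups did not overlap, and Srsf3 fell (-0.79, SE 0.19, adjusted p = 0.00552). Its p53KO libraries, at 128, 147 and 148 FPKM, also lay above those of p53KO_G2, at 112 and 90.8, with no call. Median-of-ratios scaling called Srsf3 lower there (-0.91, adjusted p = 0.00202), and Srsf6 lower in 3dai with p53WT (-0.81, adjusted p = 0.00305). Leaving out 1 library at a time, the call in G2 with p53KO was lost for Srsf7 (without p53KO replicate 1, 2 or 3 or p53KO_G2 replicate 1 or 2, adjusted p = 0.0525 to 0.175) and Srsf6 (without p53KO replicate 1 or 2 or p53KO_G2 replicate 1, adjusted p = 0.0833 to 0.297). In fits without 1 library, the call in G2 with p53WT was lost for Srsf6 (without p53WT_G2 replicate 1, adjusted p = 0.111) and Srsf3 (without p53WT_G2 replicate 1, adjusted p = 0.0733).

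Srsf2, Srsf4 and Srsf11 were not called against cells with no suffix in either suffix or genotype. Srsf2, the most abundant SR gene in both 3dai groups, ranged from 156 to 356 FPKM and gave 0.05 and 0.39 in 3dai and -0.66 and -0.06 in G2. Srsf4 ranged from 35.3 to 58.4 FPKM, with 95% intervals of -0.19 to 0.53 and -0.35 to 0.38 in 3dai. Srsf11 gave -0.29 and -0.12 in 3dai and -0.18 and 0.22 in G2. Under median-of-ratios scaling Srsf2 was called lower in G2 with p53WT (-1.09, adjusted p = 0.00739) and Srsf11 in 3dai with p53WT (-0.69, adjusted p = 0.00911).

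**Figure D3:**
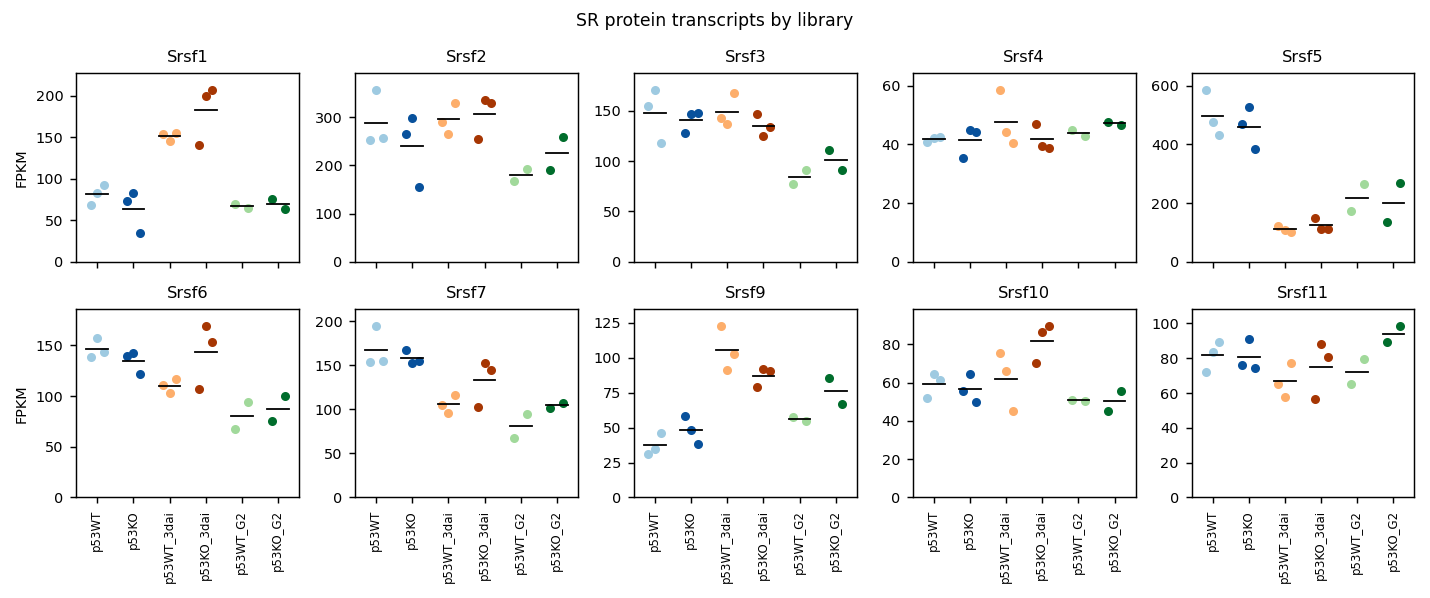
FPKM (vertical axes, linear from 0) of the 10 tested SR protein genes, 1 panel each, by group (horizontal axes); points are libraries and bars are group means. Srsf5 lies at 383 to 584 FPKM with no suffix and at 101 to 149.6 in 3dai, Srsf1 and Srsf9 are highest in 3dai, and Srsf3, Srsf6 and Srsf7 are lowest in G2.

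Of the 20 hnRNP genes 8 rose and 1 fell in 3dai with p53WT, and 12 rose and 2 fell with p53KO, with medians of 0.35 and 0.52. Over all genes 31.8% and 30.4% rose and 20.9% and 22.7% fell. Hnrnpa0, Hnrnpab, Hnrnpd, Hnrnpk, Hnrnpl, Hnrnpm, Hnrnpul1 and Hnrnpul2 were called in both genotypes. Median-of-ratios scaling ended the calls of Hnrnpa0 (0.05 and 0.17) and Hnrnpk (0.22 and 0.35) in both genotypes, those of Hnrnpd (0.41, adjusted p = 0.109) and Hnrnpab (0.37, adjusted p = 0.213) with p53WT and that of Hnrnpul2 (0.36, adjusted p = 0.103) with p53KO. Median-of-ratios scaling gives the libraries with no suffix factors of 0.846 to 0.885 and all others 1.07 to 1.18. Under it the family median in 3dai with p53WT turned to -0.05, with 4 higher and 5 lower. Of all genes 50.9% were called in that fit, 27.4% lower, and 46.1% of the calls were higher. The hnRNP counts are near these shares. In G2 3 rose and 2 fell with p53WT, beside 22.1% and 5.39% of all genes, and 2 rose and 0 fell with p53KO, beside 22.5% and 7.06%. The rise of Hnrnpul2 in G2 with p53WT was 0.26 and not called under median-of-ratios scaling.

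Hnrnpl, which codes a protein that binds CA repeats, had the largest hnRNP rise in 3dai with p53WT, and its 250 bases before the start (chr7:28810640-28810889, plus strand, GRCm38.p6, RefSeq) are shown because they hold 4 CCAAT boxes, marked in capitals with 1 GC box.
Hnrnpl: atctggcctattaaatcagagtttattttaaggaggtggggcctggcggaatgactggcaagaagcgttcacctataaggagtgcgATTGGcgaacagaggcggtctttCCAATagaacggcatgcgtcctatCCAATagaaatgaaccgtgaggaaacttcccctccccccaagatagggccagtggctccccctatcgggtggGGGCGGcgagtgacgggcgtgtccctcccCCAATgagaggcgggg
CCAAT or its complement was found in 12 of 18 hnRNP promoters matched, in 3 of 11 SR promoters, in 2 of 7 SF3 promoters and in 36.4% of tested genes.

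Hnrnpl stood at 107, 109.97 and 92.98 FPKM in p53WT, 99.4, 104 and 103 in p53KO, 320.4, 288 and 284 in p53WT_3dai and 252, 289.8 and 284 in p53KO_3dai. In G2 it was at 199 and 229 FPKM in p53WT_G2 and 216 and 183 in p53KO_G2. Cells with no suffix, G2 and 3dai formed 3 ranges that did not overlap, and the libraries within each lay close together. The log2 differences were 1.52 (SE 0.14, adjusted p = 3.61e-07) and 1.42 (SE 0.14, adjusted p = 6.61e-07) in 3dai and 1.05 (SE 0.15, adjusted p = 0.000161) and 0.96 (SE 0.15, adjusted p = 0.000328) in G2. Hnrnpul1, which codes an hnRNP U-like protein, was at 29.5, 28.2 and 27.2 FPKM in p53WT, 24.2, 24.3 and 42.1 in p53KO, 84.8, 77.9 and 68.9 in p53WT_3dai and 77.7, 98.4 and 89.8 in p53KO_3dai, and at 54.2 and 65.3 FPKM in p53WT_G2 and 45.1 and 67.1 in p53KO_G2. It rose by 1.41 (SE 0.22, adjusted p = 6.16e-05) and 1.56 (SE 0.22, adjusted p = 2.29e-05) in 3dai and by 1.05 and 0.89 in G2, where median-of-ratios scaling gave 0.62 and 0.47 with no call. The third p53KO library was the highest of Hnrnpul1 with no suffix. With 1 library left out, the call in G2 with p53WT was lost for Hnrnpul1 (without p53WT_G2 replicate 2, adjusted p = 0.0699). When single libraries were left out, the call in G2 with p53KO was lost for Hnrnpul1 (without p53KO_G2 replicate 2, adjusted p = 0.145).

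Hnrnpm, which codes a protein that binds GU-rich sites, stood at 107, 163 and 128 FPKM in p53WT, 127, 131 and 101 in p53KO, 304, 300.2 and 343 in p53WT_3dai and 268, 299.96 and 299.9 in p53KO_3dai, and at 157 and 188 FPKM in p53WT_G2 and 181 and 152 in p53KO_G2. Every 3dai library lay above every other library. It rose by 1.26 (SE 0.17, adjusted p = 2.09e-05) and 1.27 (SE 0.17, adjusted p = 1.89e-05) in 3dai, while G2 gave 0.39 and 0.48 with no call. Hnrnpab, one of the most abundant members, was at 338, 489 and 372 FPKM in p53WT, 418, 421 and 201 in p53KO, 668, 656 and 703 in p53WT_3dai and 596, 705 and 679.5 in p53KO_3dai, and at 366 and 379 FPKM in p53WT_G2 and 440.1 and 410.4 in p53KO_G2. The 3dai and no suffix libraries did not overlap, and the differences were 0.77 (SE 0.24, adjusted p = 0.0119) and 1.00 (SE 0.24, adjusted p = 0.00219); under median-of-ratios scaling that with p53WT was 0.37 and not called.

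Hnrnpd, which codes the AU-rich element binding protein AUF1, stood at 32.7, 42.05 and 43.3 FPKM in p53WT, 33.1, 42.5 and 26.6 in p53KO, 72.5, 65.3 and 70.8 in p53WT_3dai and 66.9, 93.7 and 91.7 in p53KO_3dai, and at 37.4 and 43.4 FPKM in p53WT_G2 and 52.3 and 46.4 in p53KO_G2. The 3dai libraries lay above the rest. It rose by 0.81 and 1.29 in 3dai, the first of which was 0.41 and not called under median-of-ratios scaling. Hnrnpu, which codes a scaffold attachment protein, reached 529, 599 and 602 FPKM in the p53KO_3dai libraries, above the 344, 399 and 227 of the p53KO libraries, groups that did not overlap, and rose there (0.87, SE 0.19, adjusted p = 0.00104); with p53WT its difference was 0.38 (SE 0.19, adjusted p = 0.103). Hnrnpa2b1, Hnrnpc and Hnrnpll also rose with p53KO (0.47, 0.50 and 0.72), and none of these 3 was called under median-of-ratios scaling.

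In the FPKM as deposited, the hnRNP genes that fell against cells with no suffix were of the A/B and F/H groups. Hnrnpa3 stood at 31.9, 22.2 and 34.7 FPKM in p53WT, 33.3, 30.6 and 34.5 in p53KO, 18.6, 18.96 and 13.4 in p53WT_3dai and 17.6, 27.8 and 21.4 in p53KO_3dai, and at 20.5 and 14.01 FPKM in p53WT_G2 and 28.1 and 22.2 in p53KO_G2. It fell with p53WT in 3dai (-0.76, SE 0.23, adjusted p = 0.013) and in G2 (-0.74, SE 0.26, adjusted p = 0.0459). Hnrnph3, which codes a short relative of hnRNP H, stood at 26.8, 28.04 and 32.9 FPKM in p53WT, 34.04, 27.2 and 36.6 in p53KO, 30.5, 20.2 and 22.7 in p53WT_3dai and 13.8, 21.8 and 18.2 in p53KO_3dai, and at 17.6 and 10.7 FPKM in p53WT_G2 and 31.7 and 20.6 in p53KO_G2. It fell in 3dai with p53KO (-0.84, SE 0.25, adjusted p = 0.00999) and in G2 with p53WT (-1.03, SE 0.28, adjusted p = 0.0118). In both of these the groups compared did not overlap. Hnrnph2 reached 41.8, 31.7 and 33.00 FPKM in the p53KO_3dai libraries, beside 53.96, 66.2 and 40.7 in the p53KO ones, where 1 library of each group overlapped, and fell (-0.57, SE 0.22, adjusted p = 0.0391). Under median-of-ratios scaling Hnrnph2 was called lower in both suffixes and genotypes (-0.92 and -0.89 in 3dai, -0.90 and -0.96 in G2). The same scaling also called Hnrnpa3 lower with p53KO (-0.88 in 3dai and -0.80 in G2) and Hnrnph3 in 3dai with p53WT (-0.66). Leaving out 1 library at a time, the call in 3dai with p53WT was lost for Hnrnpa3 (without p53WT replicate 3 or p53WT_3dai replicate 3, adjusted p = 0.0609 to 0.0625). In fits without 1 library, the call in G2 with p53WT was lost for Hnrnpa3 (without p53WT replicate 1 or 3 or p53WT_G2 replicate 2, adjusted p = 0.114 to 0.363) and Hnrnph3 (without p53WT_G2 replicate 2, adjusted p = 0.19). With 1 library left out, the call in 3dai with p53KO was lost for Hnrnph2 (without p53KO replicate 1 or 2 or p53KO_3dai replicate 2 or 3, adjusted p = 0.0895 to 0.172).

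Hnrnpa1, Hnrnpdl, Hnrnpf, Hnrnph1 and Hnrnpr were called in 0 of the 4 comparisons with cells with no suffix. In 3dai with p53WT their differences were 0.33, -0.39, 0.28, -0.36 and 0.07, and with p53KO 0.18, -0.14, 0.55, 0.10 and 0.45. Under median-of-ratios scaling Hnrnpdl and Hnrnph1 were called lower with p53WT in 3dai (-0.80, adjusted p = 0.009, and -0.76, adjusted p = 0.00512) and in G2 (-0.77, adjusted p = 0.0409, and -0.80, adjusted p = 0.0175). Hnrnpr carries a failed quantification status in 3 of its 16 values. Exons of 9 members overlap those of another coding gene in the GENCODE annotation: Hnrnpm and Hnrnpul2 on the same strand and Hnrnpab, Hnrnph3, Hnrnpk, Hnrnpu, Sf3a2, Sf3b3 and Srsf2 on the opposite one. The library kit keeps strand, but no label says whether quantification used it, and reads of these neighbours could be shared.

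Over all members 17 of 39 rose and 4 fell in 3dai with p53WT, where 31.8% of tested genes rose and 20.9% fell. With p53KO 21 rose and 3 fell, beside 30.4% and 22.7%; without the third p53KO library 17 rose and 3 fell, and without p53KO_3dai replicate 1, 2 and 3 there were 22, 17 and 17 that rose and 3, 3 and 2 that fell. In G2 7 rose and 6 fell with p53WT, beside 22.1% and 5.39%, and 7 rose and 3 fell with p53KO, beside 22.5% and 7.06%. Without p53WT_G2 replicate 2 only 2 rose with p53WT and without replicate 1 only 3 fell, and 1 fell with p53KO without p53KO replicate 1 or 2 or p53KO_G2 replicate 1. The member medians were 0.38 and 0.53 in 3dai and -0.10 and 0.19 in G2, beside 0.23, 0.14, 0.33 and 0.31 over all genes. Median-of-ratios scaling moved the medians of all genes to -0.07, -0.10, 0.00 and -0.03 and gave 12 higher and 10 lower in 3dai with p53WT, 14 and 6 with p53KO, 1 and 14 in G2 with p53WT and 4 and 6 with p53KO. The share of calls that were higher over all genes moved with it. In 3dai it went from 60.4% to 46.1% with p53WT and from 57.2% to 44.9% with p53KO. In G2 it went from 80.4% to 51.8% with p53WT and from 76.1% to 49.2% with p53KO. Under that scaling 27.4% and 28.6% of all genes were called lower in 3dai, and 11.8% and 12.7% in G2. Of the members called as deposited, 0 changed sign under the 3 other scalings, and the 7 SF3 genes that rose in 3dai with p53WT and the 6 with p53KO were called higher under each of the scalings by quantiles and by median of ratios. In G2 with p53WT 0 of the 4 SF3 calls remained under median-of-ratios scaling, and with p53KO 3 of 4 did, all but that of Sf3a1 (0.75, adjusted p = 0.0509). The comparisons within a genotype share the libraries with no suffix, so their values stand side by side and are not independent.

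**Figure D4:**
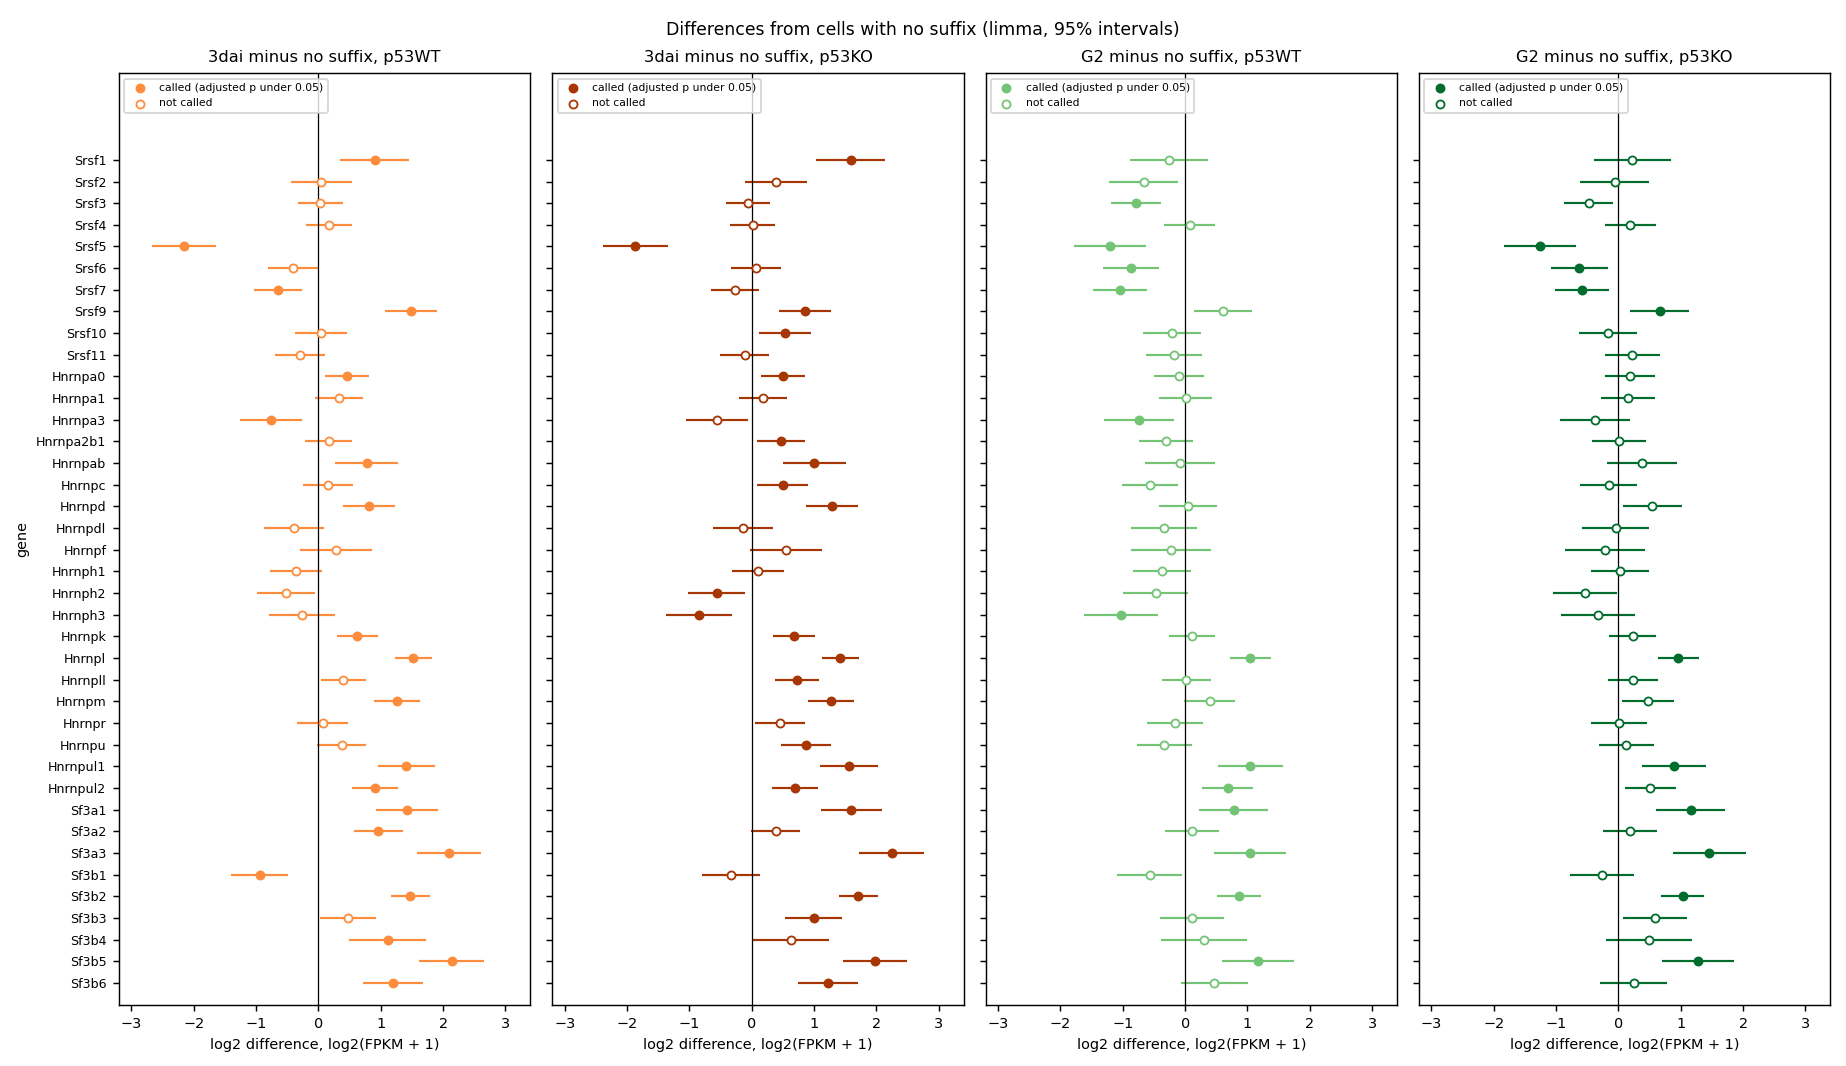
Log2 differences (horizontal axes, log2(FPKM + 1)) of the 39 tested genes (vertical axis) between 3dai or G2 and no suffix in each genotype; points are limma estimates, filled where called, and bars are 95% intervals. Sf3a3 and Sf3b5 lie near 2 in 3dai and near 1 in G2, and Srsf5 lies furthest to the left in all 4 panels.

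Set against 3dai, more members were called lower than higher in G2 cells. With p53WT 1 of 39 members was higher and 14 were lower, where 13.9% of tested genes were higher and 6.70% lower. With p53KO 0 were higher and 11 lower, beside 16.1% and 7.10%. The member medians were -0.50 and -0.44, beside 0.09 and 0.12 over all genes. Median-of-ratios scaling gave 15 lower in each genotype, beside 6.56% and 8.67% of all genes. By family the lower calls with p53WT were 3 SR, 7 hnRNP and 4 SF3 genes, and with p53KO 3, 5 and 3. Single libraries moved these counts: with p53WT 9, 8 and 8 were lower without p53WT_3dai replicates 1, 2 and 3, and 0 and 4 without p53WT_G2 replicates 1 and 2. With p53KO 4 were lower without p53KO_3dai replicate 2 or 3, and 5 and 3 without p53KO_G2 replicates 1 and 2.

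Srsf1 had the largest difference in each genotype, with -1.16 (SE 0.29, adjusted p = 0.0109) for p53WT and -1.36 (SE 0.29, adjusted p = 0.00382) for p53KO, and its G2 libraries all lay below its 3dai libraries. Srsf5 was the member that was higher in G2, by 0.95 (SE 0.27, adjusted p = 0.0218) with p53WT, and gave 0.61 (SE 0.27, adjusted p = 0.121) with p53KO. Sf3a3 was lower in both (-1.05 and -0.78), as were Sf3b2 (-0.61 and -0.68), Hnrnpc (-0.72 and -0.65), Hnrnpm (-0.87 and -0.80), Hnrnpd (-0.77 and -0.74), Hnrnpu (-0.71 and -0.74) and Hnrnpl (-0.47 and -0.46). Called with p53WT and not with p53KO were Sf3b5, Sf3a2, Srsf9, Srsf3, Hnrnpab and Hnrnpa0 (-0.97, -0.85, -0.88, -0.82, -0.86 and -0.55). Called with p53KO and not with p53WT were Sf3b6, Srsf6 and Srsf10 (-0.98, -0.69 and -0.69). Whether these differ between genotypes was not tested for G2 against 3dai. Over 8 alternatives that kept all libraries, the call of Sf3a3 with p53KO held in 3. It was lost with a pseudocount of 0.1, no filter, quantile normalization, small RNA and mitochondrial names left out, and a replicate block. Those of Hnrnpl in each genotype, and of Hnrnpab and Hnrnpa0 with p53WT, held in 5 of 8. The losses that follow are listed only for the members with the largest called differences. The counts above without single libraries include losses of other calls named here, so a gene not listed did not necessarily keep its call. When single libraries were left out, the call in G2 against 3dai with p53WT was lost for Srsf1 (without p53WT_G2 replicate 1 or 2, adjusted p = 0.0581 to 0.0877), Srsf5 (without p53WT_3dai replicate 2 or 3 or p53WT_G2 replicate 2, adjusted p = 0.0518 to 0.254), Sf3a3 (without p53WT_G2 replicate 1 or 2, adjusted p = 0.0706 to 0.0912), Sf3b5 (without p53WT_3dai replicate 3 or p53WT_G2 replicate 1, adjusted p = 0.0683 to 0.212), Srsf9 (without p53WT_G2 replicate 1 or 2, adjusted p = 0.0594 to 0.0853), Hnrnpab (without p53WT_3dai replicate 1, 2 or 3 or p53WT_G2 replicate 1 or 2, adjusted p = 0.0615 to 0.151) and Hnrnpm (without p53WT_G2 replicate 1, adjusted p = 0.0771). Leaving out 1 library at a time, the call in G2 against 3dai with p53KO was lost for Sf3a3 (without p53KO_3dai replicate 2 or 3 or p53KO_G2 replicate 1 or 2, adjusted p = 0.0568 to 0.317), Hnrnpm (without p53KO_G2 replicate 2, adjusted p = 0.0938), Hnrnpd (without p53KO_3dai replicate 2 or 3 or p53KO_G2 replicate 1 or 2, adjusted p = 0.0596 to 0.149), Hnrnpu (without p53KO_3dai replicate 2 or 3 or p53KO_G2 replicate 1 or 2, adjusted p = 0.0536 to 0.117) and Sf3b6 (without p53KO_G2 replicate 2, adjusted p = 0.0924).

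Between genotypes 0 of 39 members were called in any of the 3 comparisons by limma. Over all genes 0.00772% were called among cells without a suffix, 0.0849% in 3dai and 0.0695% in G2. At an unadjusted p under 0.05 there were 0, 1 and 1 members, beside 3.95%, 8.89% and 4.87% of tested genes. Member medians were -0.11, 0.06 and 0.13. The differences ranged from -0.44 to 0.36 with no suffix, from -0.43 to 0.42 in 3dai and from -0.29 to 0.85 in G2, and the 95% intervals reached as far as -0.99 and 0.82, -0.96 and 0.86, and -0.91 and 1.50. Differences of that size could go uncalled with these numbers of libraries.

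With no suffix the smallest p belonged to Srsf9 (0.36, interval -0.06 to 0.78, adjusted p = 1), Srsf1 (-0.44) and Hnrnpc (-0.28). Hnrnpc was at 182, 247 and 196 FPKM in p53WT and 182, 199.8 and 134 in p53KO, and all 3 genes overlapped between genotypes. In 3dai they were Sf3a2 (-0.40, interval -0.79 to -0.01, adjusted p = 0.544), Srsf10 (0.42) and Srsf6 (0.35). Sf3a2, the first of these, was at 60.02, 65.4 and 64.8 FPKM in p53WT_3dai and 61.7, 44.1 and 40.4 in p53KO_3dai, where the first p53KO_3dai library lay within the p53WT_3dai range. Under array weights it was called (adjusted p = 0.0427), as were 6.21% of all genes in that fit, so that 1 of 39 members is below the share over all genes. Replicates 2 and 3 of p53KO_3dai, which hold more heat shock transcript than replicate 1, were lower for Sf3a2 and higher for Srsf1, Srsf6 and Sf3b1; the part of this in the differences was not tested. In G2 they were Hnrnph3 (0.85, interval 0.20 to 1.50, adjusted p = 0.813), Hnrnpa3 (0.53) and Srsf9 (0.42), with no overlap between the 2 libraries of each genotype. Over all genes 31.2% did not overlap there.

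Whether the changes of members differed between genotypes was tested as an interaction: 0 of 39 were called for 3dai and 0 for G2, beside 0% and 0.0232% of all genes. For 3dai 2 had an unadjusted p under 0.05, Srsf9 (-0.63) and Sf3a2 (-0.58), beside 6.00% of tested genes, and Sf3b1 came next (0.61, interval -0.04 to 1.26). For G2 0 had one, beside 4.35%, and Hnrnph3, Srsf2 and Hnrnpd had the smallest p (0.70, 0.60 and 0.50).

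**Figure D5:**
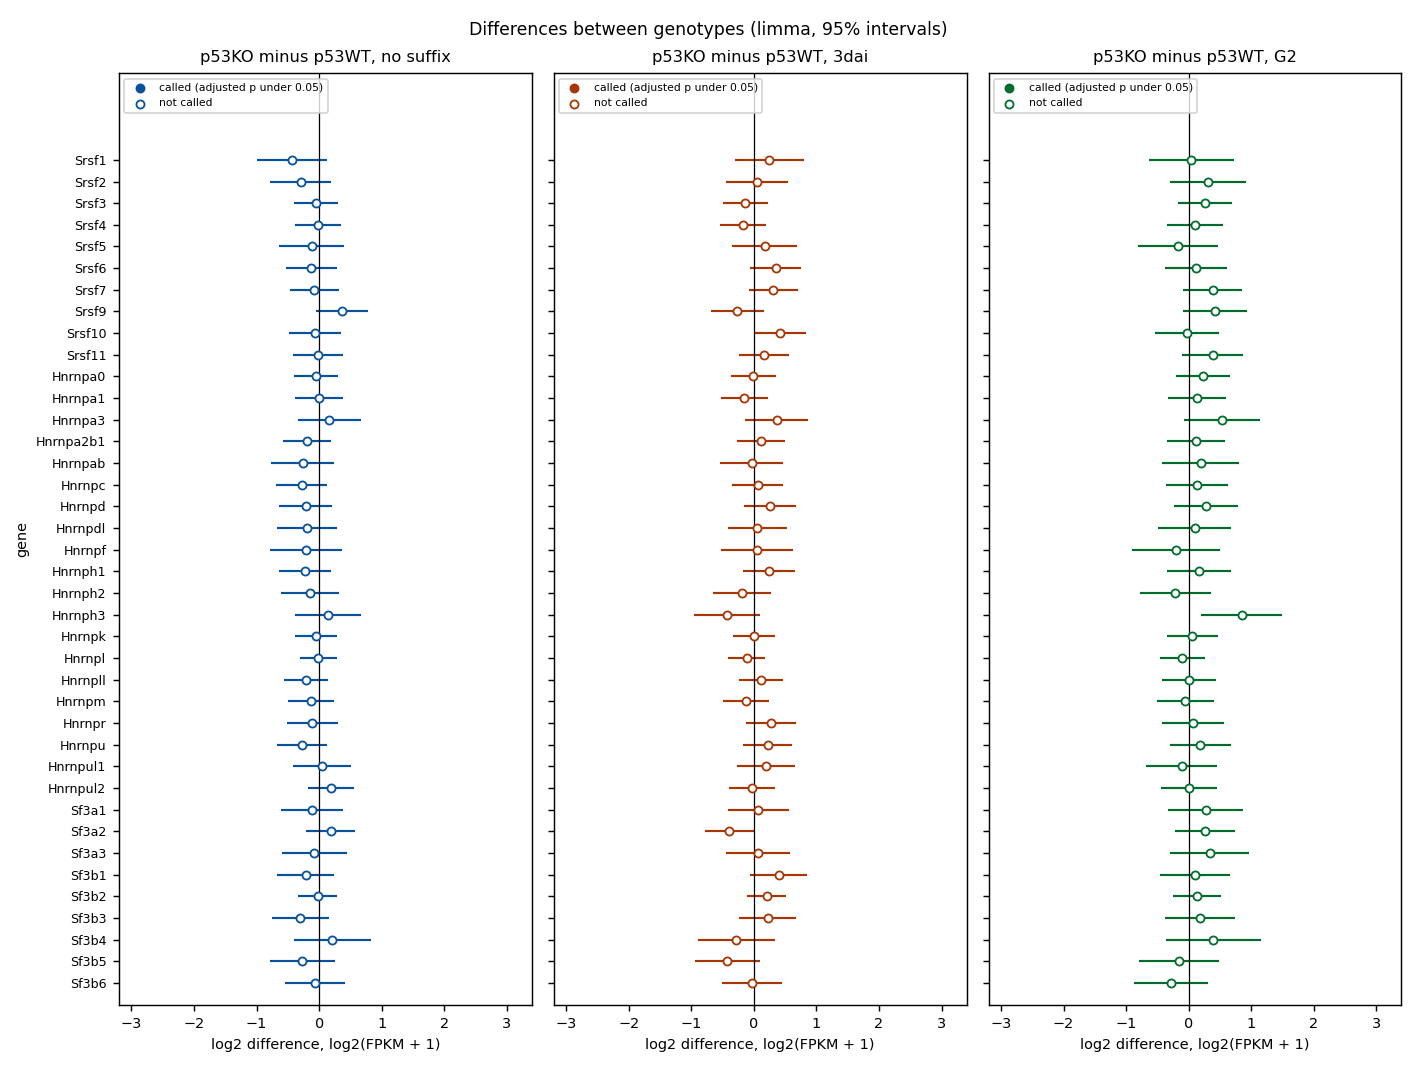
Log2 differences (horizontal axes, log2(FPKM + 1)) of the 39 tested genes (vertical axis) between p53KO and p53WT, in 1 panel each for no suffix, 3dai and G2; points are limma estimates, open where not called, and bars are 95% intervals. All points are open, and intervals are widest in G2, with 2 libraries per genotype.

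Genes of the remaining splicing machinery were counted from lists chosen by role. Of 30 Sm and tri-snRNP proteins 27 rose and 0 fell in 3dai with p53WT and 28 rose and 0 fell with p53KO. Their medians were 1.44 and 1.48. In G2 8 and 12 rose, beside 22.1% and 22.5% of all genes. Against 3dai 16 and 13 were lower in G2, beside 6.70% and 7.10% of all genes. Of 24 other U1 and U2 factors 10 rose and 3 fell with p53WT, and 14 rose and 0 fell with p53KO. Of 28 proteins of the catalytic steps 14 rose and 2 fell, and 16 rose and 1 fell. Beside these 3dai counts, 31.8% and 30.4% of all genes rose and 20.9% and 22.7% fell. Prpf31, which codes a tri-snRNP protein, rose by 2.70 and 2.60, and Lsm7, which is listed at 0 in the third p53WT library, by 3.66 and 2.15. Snrpc of the U1 snRNP rose by 1.74 and 1.34, Snrpb2 of the U2 snRNP by 1.50 and 1.48, Prpf19 by 1.69 and 1.74 and Ddx41 by 1.78 and 2.21. Prpf39 and Prpf40b, both U1 factors, were lower with p53WT (-1.61 and -1.35) and not called with p53KO (-0.44 and -0.36). Srrm2, a speckle scaffold, was lower in both (-1.50 and -0.75), and Syf2 in p53WT (-0.73). The call of Syf2 was lost without p53WT replicate 1 or 2 or p53WT_3dai replicate 1 (adjusted p up to 0.109).

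SR proteins are phosphorylated by SRPK and CLK kinases and arginine methylated by PRMT enzymes, and of 16 such genes and carriers 6 rose and 3 fell in 3dai in each genotype, near the shares over all genes (31.8% and 30.4% higher, 20.9% and 22.7% lower). The CLK kinase genes Clk1 (-1.77 and -1.84) and Clk4 (-1.86 and -1.07) fell, and the methyltransferase genes Prmt5 (2.42 and 2.68) and Prmt1 (2.15 and 2.38) rose. Of 35 other splicing regulators tested 12 rose and 6 fell with p53WT, near the same shares, and 18 rose and 5 fell with p53KO, among them Mbnl3 (3.05 and 3.10) and Rbm24 (2.31 and 2.09), a regulator of muscle exons, on the higher side. Rbm20, a regulator of titin splicing, and Tra2a were lower (-1.01 and -2.34, and -0.90 and -0.56). The call of Rbm20 with p53WT was lost without p53WT replicate 3 (adjusted p = 0.0687). Of 18 genes of nonsense-mediated decay 9 rose and 1 fell with p53WT, and 10 rose and 1 fell with p53KO, with Magohb (2.06 and 2.03) and Smg5 (1.44 and 1.12) higher and Smg1 lower with p53WT (-0.85). The call of Smg1 was lost without replicate 3 of p53WT or of p53WT_3dai (adjusted p up to 0.0782).

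Genes of the cell cycle, of stress and of other cell types were counted between the same groups. Beside these counts, 31.8% of all genes rose and 20.9% fell in 3dai with p53WT, and 30.4% and 22.7% with p53KO. In G2 5.39% of all genes fell with p53WT and 7.06% with p53KO. All 10 proliferation genes rose in 3dai in both genotypes, and their summed level was 117 to 172 FPKM in p53WT and 132 to 150.1 in p53KO, 1071 to 1147 in p53WT_3dai and 1172 to 1231 in p53KO_3dai, and 418 to 423 and 447 to 662 in the G2 groups. All 10 immediate early genes fell in 3dai and in G2: they summed to 3601 to 9479 FPKM in p53WT and 6096 to 18696 in p53KO, to 351 to 446 over both 3dai groups and to 842 to 1644 over both G2 groups. Of 10 heat shock genes 8 fell and 1 rose in 3dai in each genotype, with the p53KO_3dai libraries apart as described. All 8 pericyte genes fell in 3dai in each genotype, from 365 to 957 FPKM in p53WT to 24.7 to 42.0 in p53WT_3dai, and Schwann genes from 638 to 697 to 35.9 to 54.2. Of the muscle stem cell genes 7 of 10 fell and 1 rose in each genotype, and they summed to 2031 to 2966 FPKM in p53WT and 584 to 633 in p53WT_3dai. Tenocyte genes fell for 7 of 8 and rose for 1 in each genotype (230.2 to 449 FPKM in p53WT, 38.7 to 85.8 in p53WT_3dai), and fibro-adipogenic genes fell for 6 of 8 with p53WT and 5 with p53KO (998 to 1099, and 91.3 to 105). Of 6 myoblast genes tested 2 rose and 3 fell in 3dai in each genotype, with the rises near the share over all genes. Mature fibre genes summed to 30.3 to 107 FPKM in p53WT and to 623 to 1624 in p53WT_G2. Of macrophage genes 5 to 9 of 10 were listed at 0 in each library, Csf1r in all. How much any of these plays a part in the splicing factor differences was not tested, and in bulk RNA fewer cells of a type and less RNA per cell cannot be told apart.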

How the data were processed

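FPKM per gene were deposited by the authors, 1 table for each of 16 libraries; per the submitters' processing notes STAR, Cufflinks and Cuffdiff were used with mm10, and no version is given. Per the labels' protocols, libraries were made with a directional kit. Depth and read counts are unknown, so intervals reflect the spread between libraries and not counting error.

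The scale of every test is log2(FPKM + 1), over the 12954 genes that reach 1 FPKM in 2 or more libraries. One limma model (version 3.58.1, in R 4.3.3) held the 6 groups, with the variance as a trend of the level and no replicate block. Every adjusted p is from limma's moderated test with Benjamini-Hochberg adjustment over all genes of a comparison, and 0.05 was the limit for a call. The fit was tested on simulated data. An interaction subtracts the genotype difference of cells with no suffix from that of 3dai or G2 cells.

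The members, the other gene lists and the tests were chosen with earlier results of these data known. Named are the 6 largest rises and falls called in each comparison between suffixes, the 3 smallest p in each genotype comparison and interaction, the highest and lowest member of each family, and from each other list the 2 largest rises and falls called in 3dai with p53WT. Other members are named to account for all of them. Promoters of 36 of 40 members were matched by symbol in RefSeq, and 9 motifs were searched on both strands. Alternatives were another pseudocount (0.1), no filter, a mean of at least 5 FPKM, median-of-ratios scaling, quantile normalization, a fit of only the groups compared, a replicate block, weights per array, each library left out, and rescaling after small RNA and mitochondrial names were dropped. Values with a failed or low-data status set to missing were added after seeing the data.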

Additional observations from a re-analysis of the deposited data

How the results depend on the processing

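The balance of higher and lower calls turned with the scaling in G2 and, for the hnRNP genes, in 3dai with p53WT. Over all genes the share of 3dai calls that were higher with p53WT moved from 60.4% to 46.1% under median-of-ratios scaling. Genotype counts stayed at 0 in all alternatives but 1. Under median-of-ratios scaling 10 members were lower in 3dai with p53WT (4 as deposited) and 6 with p53KO (3). In G2 1 was higher and 14 lower with p53WT (7 and 6), and 4 were higher and 6 lower with p53KO (7 and 3). Of all genes that scaling called 50.9% and 51.9% in 3dai (27.4% and 28.6% lower), and 24.4% and 24.9% in G2 (11.8% and 12.7% lower). Quantile normalization gave 9 and 6 lower in 3dai, 5 higher and 9 lower in G2 with p53WT and 5 and 6 with p53KO. Of all genes it called 50.8% and 51.5% in 3dai (24.8% and 24.7% lower), and 25.5% and 27% in G2 (12.1% and 13.2% lower). With small RNA and mitochondrial names left out, 9 and 5 were lower in 3dai, beside 23.9% and 25.6% of all genes. In G2 against 3dai 6 (14) and 5 (11) were lower, beside 3.98% and 4.96%. With array weights 17 were lower in G2 against 3dai with p53KO (8.78% of all genes), and 1, Sf3a2, was lower with p53KO in 3dai, where 6.21% of all genes were called. When no other groups entered the fit 1 was lower in G2 with p53KO, and without a filter 1 was higher in G2 against 3dai with p53KO (0). The cause of these moves was not tested, beyond what the scaling does to all genes.

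Leaving out 1 library in turn gave 15 to 17 higher and 3 to 4 lower in 3dai with p53WT, and 17 to 23 and 2 to 3 with p53KO. In G2 it gave 2 to 8 higher and 3 to 6 lower with p53WT, and 5 to 8 and 1 to 3 with p53KO. In G2 against 3dai it gave 0 to 1 higher and 0 to 9 lower with p53WT, and 0 to 1 and 3 to 13 with p53KO. Where this left 1 library in a group, that library was assumed to vary like the other groups.

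Replicate numbers are shared by the groups, but the labels do not say that they mark a shared animal or day. The deviations of same-numbered libraries correlated at -0.159 to 0.127 over 36 pairs, with 1 over 0.1, so the numbers were not taken as pairs. With a replicate block 17 members were higher and 4 lower in 3dai with p53WT, and 20 and 3 with p53KO. In G2 6 were higher and 5 lower with p53WT, and 6 and 2 with p53KO. Of all genes 52.3% and 52.4% were called in 3dai (20.7% and 22.4% lower), and 25.9% and 27.3% in G2 (5.34% and 6.72% lower). In G2 against 3dai 13 and 8 members were lower, beside 5.86% and 6.21% of all genes.

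The calls of single genes followed through every alternative were the largest member calls of each comparison and those named from the other lists. Of these 74 calls, 42 held in every alternative and 0 changed direction. Member calls with smaller differences are outside this count, so it does not give their stability. Depth is unknown from the files, so no limit from counting can be given for Srsf12 or other low values.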

Other observations

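The transcripts were ranked within each group of cells by mean FPKM over the 40 genes. Between no suffix and 3dai the ranks of Sf3a3, Sf3b5 and Srsf5 changed most. Srsf5 ranked 2 in p53WT and p53KO, 18 in p53WT_3dai and p53KO_3dai, and 6 and 7 in p53WT_G2 and p53KO_G2. Sf3a3 ranked 36 and 35 with no suffix, 17 and 19 in 3dai and 26 and 23 in G2, and Sf3b5 ranked 32 and 36, 14 and 22, and 22 and 24. Hnrnpl ranked 17 in both genotypes with no suffix and 6 and 8 in 3dai, and Hnrnph2 ranked 23 in both and 35 and 36 in 3dai. Hnrnpa2b1, Hnrnpab and Hnrnpu held ranks 1 to 4 in all 6 groups.

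In the groups with 3 libraries, the most variable members were Sf3b5 in p53WT, with a coefficient of variation of 41.8%, and Srsf1 in p53KO, with 40.1%. The family medians of this coefficient in p53WT were 14.7% for SR, 13.2% for hnRNP and 16.3% for SF3 genes.

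Among the other motifs searched in the 36 promoters, NRF1 sites and cAMP response elements (TGACGTCA) were found in 0, beside 1.61% and 2.85% of tested genes, and TATA boxes (TATAAA) in 4, beside 6.38%.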
